A study of Mus musculus with 91 samples.

Results

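The miR-99/100 and miR-125 families were followed through 7 mouse mature miRNAs, taken by name: mmu-miR-99a-5p, mmu-miR-99b-5p, mmu-miR-100-5p, mmu-miR-125a-5p and mmu-miR-125b-5p, and the opposite-arm products mmu-miR-99b-3p and mmu-miR-125a-3p. The species prefix mmu is left out from here on. They are 7 of the 1504 mature miRNAs in the main count table, and all 7 also stand in a smaller table of 895 miRNAs. Small RNA was sequenced by CAS-seq, a low-input method in which Cas9 removes adapter dimers, in 91 mouse libraries, of which 88 could be assigned to 25 conditions. Extraembryonic ectoderm (Exe) and epiblast (Epi) were dissected at embryonic day (E) 6.5 and 7.5 from embryos of a C57BL/6 male and an F1 female, by the methods a male homozygous for Oct4-EGFP on a C57BL/6J background and a B6D2F1 female (C57BL/6J mother, DBA2 father), so that controls and mutants alike carry the reporter. A base editor injected into the zygote had introduced stop codons into the DNA methyltransferase genes, which gave embryos without Dnmt1 (Dnmt1-KO), without Dnmt3a and Dnmt3b (Dnmt3a/3b-DKO) or without all 3 (Dnmt-null) beside controls, with 4 libraries a condition and 3 in E7.5 control Epi and E7.5 Dnmt-null Epi. Androgenetic haploid embryonic stem cells (AG-haESCs, strain C57BL/6) carry only a sperm genome and can replace sperm. They comprised WT cells (n = 3), the line O48 (n = 3) and cells labelled Mir-6KO (n = 2), in which 6 miRNA genes had been deleted and which were grown from single O48 cells. O48 is taken here as the line without the H19 and IG differentially methylated regions (DMRs), called DKO. The methods delete the miRNAs in O48 and the study describes these deletions in DKO cells, but neither the labels nor the methods give the genotype of O48. Semi-cloned (SC) embryos, made by injecting AG-haESCs into oocytes, at E6.5 came from WT or DKO cells, each with and without Dnmt-null editing (the edited groups are named Dnmt-null and DKO;Dnmt-null), and at E7.5 were controls or Mir-6KO;Dnmt-null, with 3 libraries each. The E7.5 SC controls came from DKO cells, so both E7.5 SC groups carry the DMR deletions on the paternal genome. In SC embryos the deletions affect 1 parental copy only. The labels name no tissue for the SC libraries, and the study calls its E6.5 WT, DKO and Dnmt-null SC samples epiblast.

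miR-125 is the vertebrate counterpart of lin-4, and let-7 and lin-4 were the first miRNAs found, both as timers of development in worms. In mammals the miR-99/100, let-7 and miR-125 families lie side by side in 3 copies of an ancestral cluster, and the members of a cluster can be cut from a shared primary transcript. In pluripotent cells LIN28 binds let-7 precursors and blocks their maturation, whereas miR-99/100 and miR-125 precursors escape that block, so that neighbours on 1 transcript can reach very different mature levels. A miRNA selects its targets mainly through its seed, bases 2 to 8. miR-99/100 is known for restraining mTOR and its receptor partners, and miR-125 for repressing Lin28, among other targets.

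The mature sequences show which members could act on the same targets and which could be confused in counting. All 7 members were found by name in the RefSeq table for GRCm38.p6. The seed is in capitals.
miR-99a-5p: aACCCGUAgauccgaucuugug
miR-99b-5p: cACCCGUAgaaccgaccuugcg
miR-100-5p: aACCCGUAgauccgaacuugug
miR-125a-5p: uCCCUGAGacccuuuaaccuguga
miR-125b-5p: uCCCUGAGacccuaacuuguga
miR-99b-3p: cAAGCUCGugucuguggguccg
miR-125a-3p: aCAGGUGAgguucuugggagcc
let-7e-5p: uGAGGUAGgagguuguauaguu

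The 3 miR-99/100 products share the seed ACCCGUA, the 2 miR-125 5p products share CCCUGAG, and the 2 3p arms have seeds of their own. miR-99a-5p and miR-100-5p are the closest pair, identical in 21 of 22 bases with U16A as their only difference, counted from 1 at the 5′ end. miR-99b-5p differs from miR-99a-5p in 4 bases, A1C, U11A, U16C and U21C. miR-125a-5p (24 bases) and miR-125b-5p (22 bases) share their first 13 bases and then diverge. The mismatch and multi-mapping settings of the alignment were not given in the sources used here, so reads of miR-99a-5p and miR-100-5p in particular may not be cleanly separated.

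The genes lie in 3 clusters, given here in GRCm38 with GENCODE and RefSeq annotation. Mir99b, Mirlet7e and Mir125a occupy 692 bases of the plus strand at chr17:17830188-17830879 inside the protein-coding gene Spaca6, where Mir99b and Mirlet7e are intronic and Mir125a overlaps an annotated Spaca6 exon. Mir99a, Mirlet7c-1 and Mir125b-2 spread over 47408 bases at chr16:77598936-77646343 inside the long non-coding host transcript Mir99ahg and outside its exons. Mir100, Mirlet7a-2 and Mir125b-1 spread over 50578 bases at chr9:41531425-41582002 inside the non-coding host Mir100hg. miR-125b-5p is made from both the chromosome 9 and the chromosome 16 gene, and their products are identical, so its counts have no single source.

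Totals ran from 45242 to 26970637 counts per library. They were lowest in E6.5 tissue (45242 to 600821), intermediate in E7.5 tissue (266379 to 2394918) and E6.5 SC embryos (154061 to 2425038), and at least 3813865 in every AG-haESC and E7.5 SC library. Levels are given in counts per 1000000 counts of the library (CPM), and 3 counts, taken as the limit of detection, correspond to 66.3 CPM in the shallowest library and 0.111 CPM in the deepest. Tissue labels were checked with miRNA markers: the summed level of 5 epiblast markers of the miR-302/367 cluster was 48473 to 212606 CPM in the 30 Epi libraries and 5617 to 45944 CPM in the 32 Exe libraries, with no overlap. SC WT replicate 3 stood apart, with 21252 CPM of the epiblast markers against 195381 and 214514 CPM in the other two. The libraries labelled Mir-6KO AG-haESC went against their label. Of the 6 deleted miRNA genes, miR-127-3p stood at 35728 and 44853 CPM in them against 551 to 594 CPM in O48, let-7b-5p at 29.5 to 59.6 against 3.11 to 21.5 CPM, and the other 4 products were also higher. The 5 epiblast markers summed to 239331 and 268002 CPM there and to 924 to 1670 CPM in O48, so these 2 are called the libraries labelled Mir-6KO throughout. The Dnmt genotypes could not be checked in miRNA counts, and the labels do not say whether replicates are separate embryos or cultures, so p-values measure the spread between these libraries, which may in part be technical.

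Both abundant members came from the chromosome 17 cluster. miR-99b-5p had a median of 14047 CPM over the 88 libraries (range 6331 to 59265) and a median rank of 17 among all miRNAs. miR-125a-5p followed with a median of 9966 CPM (3210 to 23944) and a median rank of 23. The others were scarce: median levels were 179 CPM for miR-125b-5p, 66.8 for miR-125a-3p, 48.4 for miR-99a-5p, 28.8 for miR-100-5p and 20.0 for miR-99b-3p. Ligation and amplification differ between sequences, so such differences between miRNAs are differences in counts and not in molecules.

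Together the 7 members took a median of 2.38% of all counts (1.13% to 7.6%), the highest share being that of SC WT replicate 3. A median of 98.8% of their counts came from chromosome 17, and never less than 91.6%. miR-99b-5p held a median of 99.3% of the counts of the members with the miR-99/100 seed, and miR-125a-5p 98.3% of the counts of the 2 members with the miR-125 seed. miRNAs outside the members were not searched for these seeds. In every library, then, at least 87.2% of the members' counts with either seed came from the single chromosome 17 product.

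**Figure D1:**
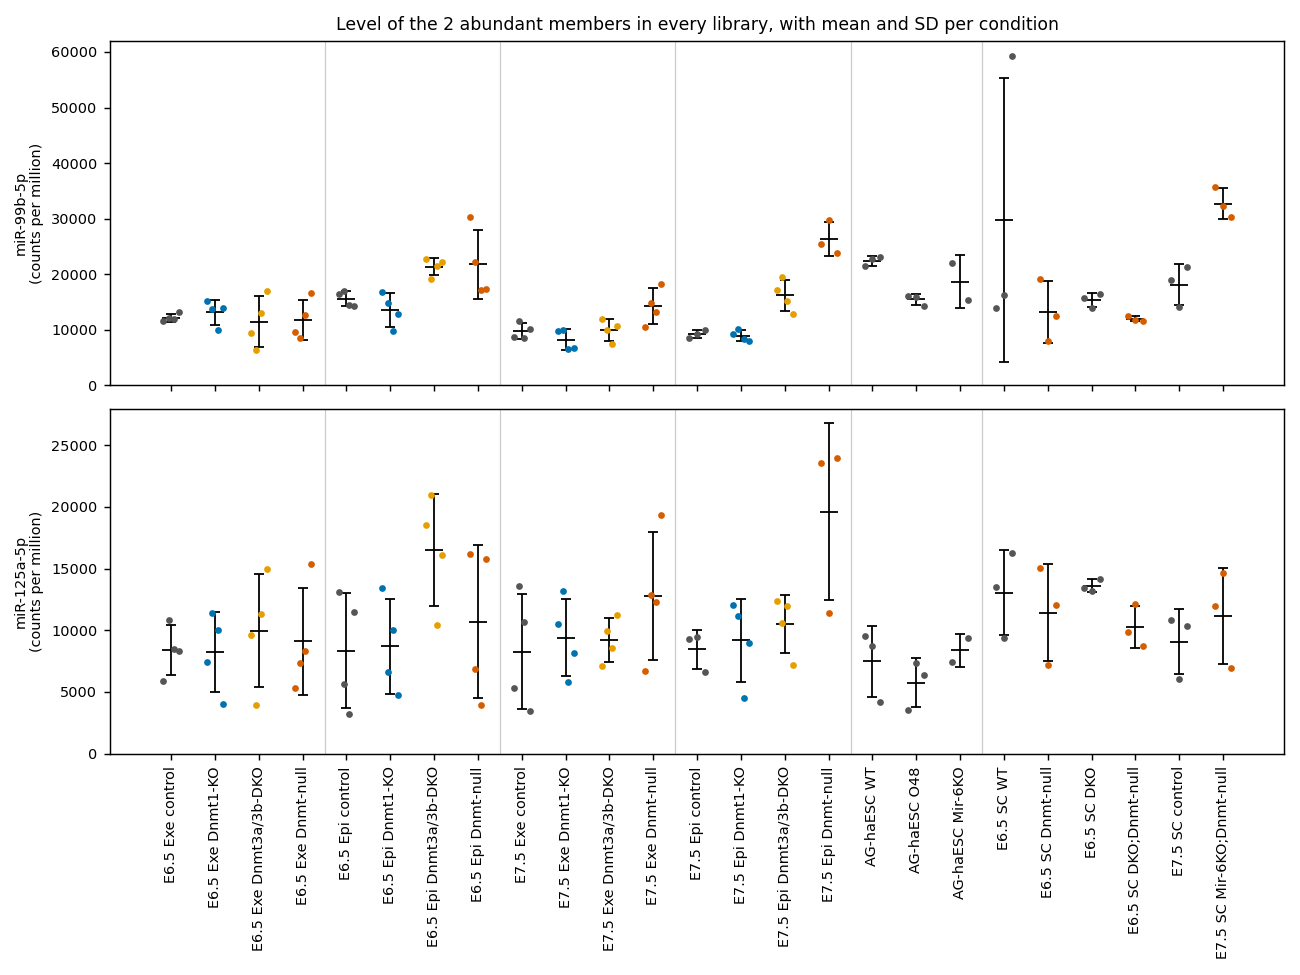
Level of miR-99b-5p (top) and miR-125a-5p (bottom) in CPM on linear axes from 0, with 1 point per library of the 25 conditions and a horizontal bar and whiskers for mean and SD. Colours mark the genotype (grey without Dnmt mutation, blue Dnmt1-KO, yellow Dnmt3a/3b-DKO, red Dnmt-null), and the 3 E7.5 Epi Dnmt-null libraries at 23815 to 29784 CPM of miR-99b-5p lie above all 3 controls at 8510 to 9969 CPM.

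The levels of miR-99b-5p spanned 3.97-fold between conditions. The highest mean was 32730 ± 2703 CPM (SD, n = 3) in E7.5 SC Mir-6KO;Dnmt-null embryos and the lowest 8247 ± 1881 CPM (n = 4) in E7.5 Exe Dnmt1-KO. When the 25 conditions were ordered by mean, the ranges of neighbours overlapped in 23 of 24 pairs, the exception lying between E7.5 Epi Dnmt-null in place 3 (26326 ± 3095 CPM, n = 3) and AG-haESC WT in place 4 (22445 ± 887 CPM, n = 3). Place 2 was SC WT with 29809 ± 25535 CPM (n = 3), a mean set by replicate 3 at 59265 CPM, the other two standing at 13944 and 16218 CPM.

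miR-125a-5p spanned 3.42-fold, from 5742 ± 1978 CPM (n = 3) in O48 cells to 19624 ± 7152 CPM (n = 3) in E7.5 Epi Dnmt-null. Its neighbours overlapped in 24 of 24 pairs, as they did for the 5 scarce members. miR-99a-5p ranged 12.8-fold, from 21.8 ± 5.12 CPM in O48 (n = 3) to 279 ± 205 CPM in E7.5 Epi Dnmt-null (n = 3), and miR-125b-5p 9.84-fold, from 78.3 ± 54.2 CPM in E7.5 Exe controls to 770 ± 1065 CPM in E6.5 Epi Dnmt-null (n = 4 each). miR-100-5p was lowest in E7.5 Exe Dnmt3a/3b-DKO (mean 7.4 CPM) and highest in E6.5 Exe Dnmt3a/3b-DKO (284 CPM), and was at 0 in 9 of 88 libraries and at 3 counts or fewer in 18. Of the 3p arms, miR-99b-3p was at 0 in 22 libraries and miR-125a-3p in 4. Counts of 0 to 3 mark what these depths could not detect, not absence.

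**Figure D2:**
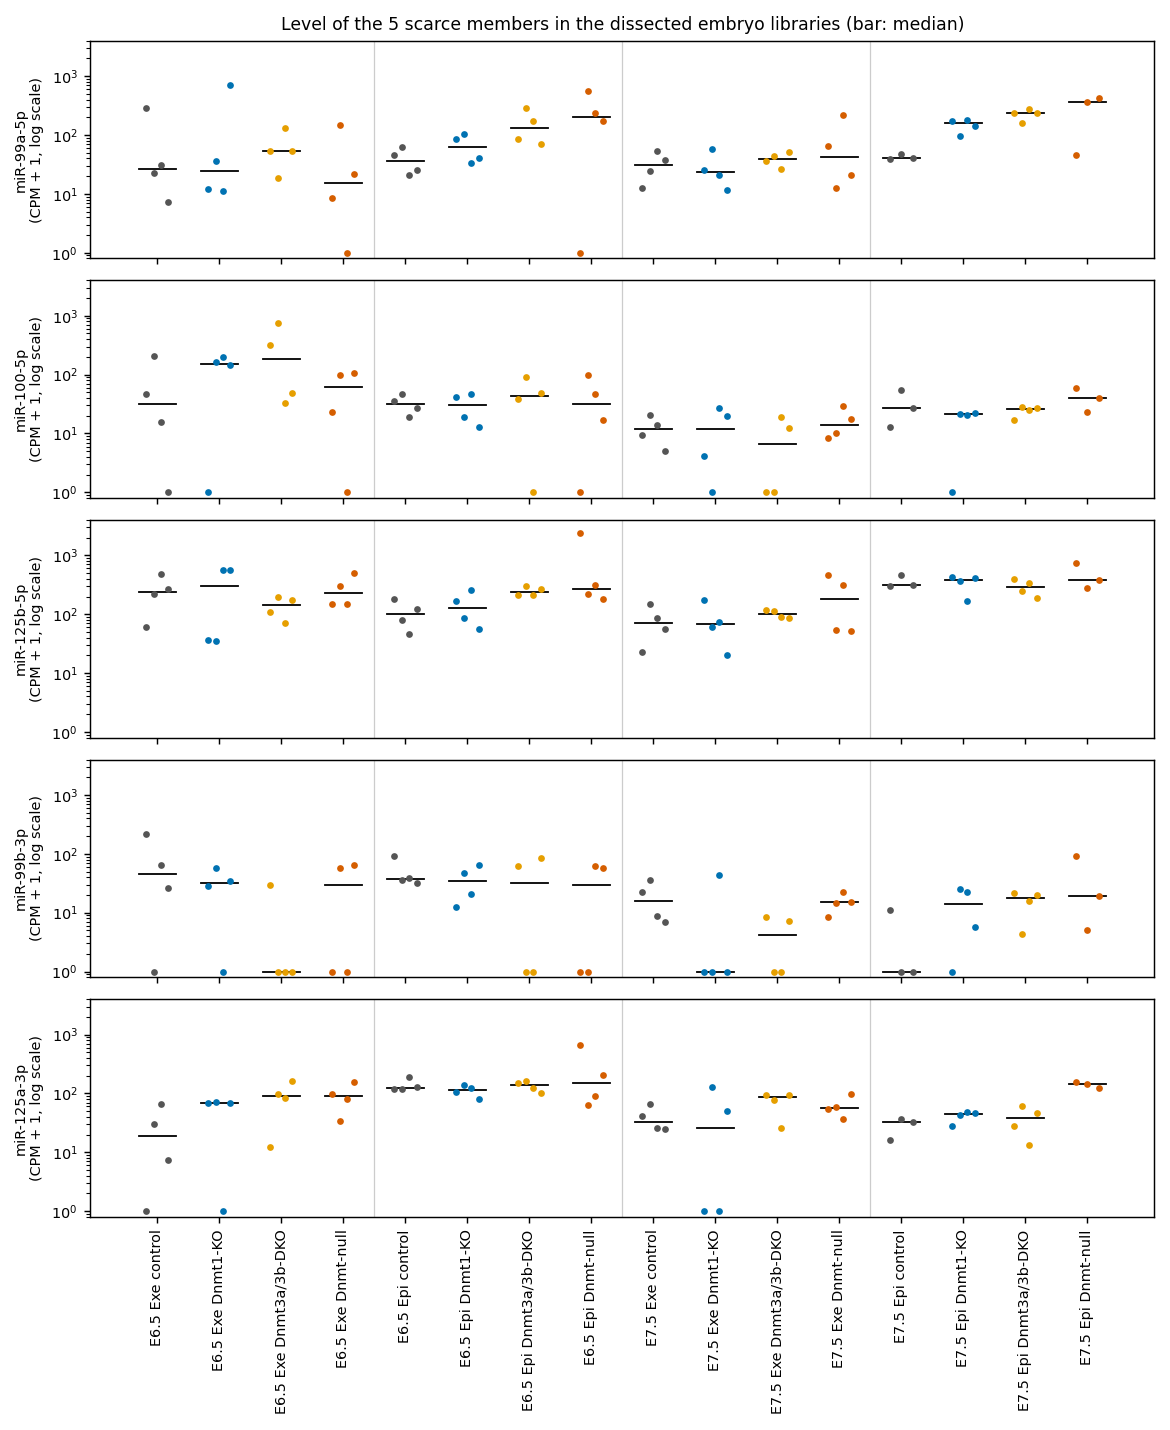
Level of the 5 scarce members in the 62 Exe and Epi libraries, in CPM plus 1 on log axes, with 1 point per library and a bar at each condition's median. Points on the bottom line are libraries with 0 counts, and in E7.5 Epi all Dnmt3a/3b-DKO libraries of miR-99a-5p (156 to 274 CPM) lie above the controls (38.3 to 46.8 CPM).

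Ratios within a library do not depend on scaling between libraries. miR-125a-5p stood at a median of 0.769 times miR-99b-5p (0.18 to 1.32) and exceeded it in 20 of 88 libraries. miR-125b-5p exceeded miR-99a-5p in 74 of 88 libraries, with a median ratio of 2.47. The 5p arm dominated in both chromosome 17 hairpins in 88 of 88 libraries: the median excess was 807-fold for miR-99b-5p over miR-99b-3p (at least 54.4-fold) and 143-fold for miR-125a-5p over miR-125a-3p (at least 16.7-fold).

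let-7e-5p sits between Mir99b and Mir125a, within 692 bases, and its mature level was far below both. miR-99b-5p exceeded it by a median of 45.5-fold (9.51 to 225), in 88 of 88 libraries. Over tissue, stage and Dnmt-null against control, 40 differences of 5 ratios were tested by exact two-sided permutation. Where a group had 3 libraries this test could not reach p under 0.05. Groups without overlap gave 0.0571 at 3 against 4 (as for miR-125b-5p to miR-99a-5p between tissues at E7.5) and 0.1 at 3 against 3 (the arm ratio of miR-125a in E7.5 Epi Dnmt-null against control). Only the arm ratio of miR-125a reached p under 0.05: miR-125a-5p exceeded miR-125a-3p 16.7-fold to 110-fold in the 4 E6.5 Epi controls and 377-, 131- and 1310-fold in E6.5 Exe control replicates 2, 3 and 4, with an exact p = 0.0286, the smallest that 4 against 4 allows. In Exe replicate 1 miR-125a-3p was at 0 counts, and in 2 of the 4 Exe libraries it was at 3 counts or fewer, so that the Exe ratios depend on the pseudocount of 0.5 and no size is given for the difference. After adjustment over the 40 tests its p was 0.286. Leaving out any of these 8 libraries leaves 3 against 4, where no p under 0.05 is possible, so the loss of the call there is no measure of its stability.

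**Figure D3:**
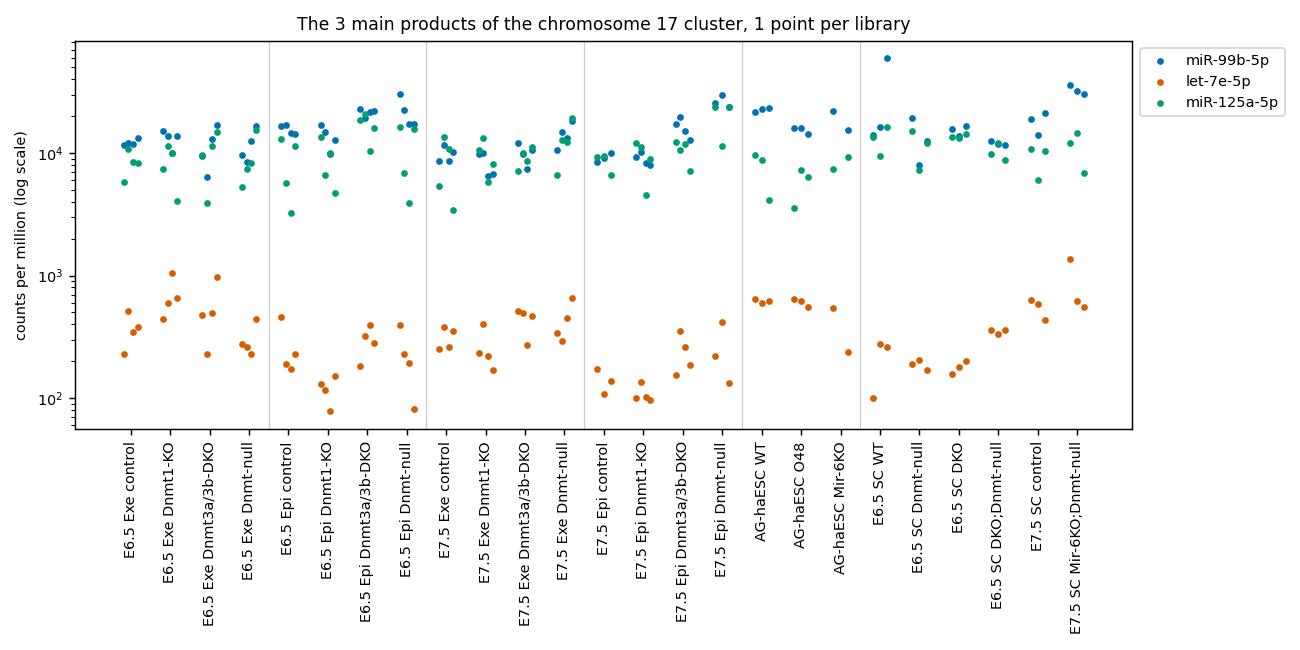
The 3 main products of the chromosome 17 cluster in CPM on a log axis, with 1 point per library in the 25 conditions. let-7e-5p (red) lies below miR-99b-5p (blue) and miR-125a-5p (green) in every condition, and miR-99b-5p exceeds it at least 9.51-fold in each library.

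Differences between conditions were tested with edgeR's quasi-likelihood test on the whole table. A member was called with a Benjamini-Hochberg adjusted p under 0.05 over all miRNAs tested and an absolute log2 fold change over 0.5, and every adjusted p below is from that test unless another is named. The share of all tested miRNAs called in the same comparison, in either direction unless stated, is given as background. In bulk tissue, fewer cells of a type and less RNA per cell cannot be told apart. Replicates were left out one at a time with the scaling factors kept, and libraries whose loss ended a call are named. TMM scales every library against 1 reference library, which edgeR picks, and the fits were repeated with each library as the reference.

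In control embryos, 2 of 7 members were called between tissues at E6.5, where 22.8% of all miRNAs were called and the median log2 difference over all miRNAs was 0.43. miR-99b-5p was at 16497, 17033, 14496 and 14341 CPM in Epi and at 11589, 12078, 11866 and 13259 CPM in Exe. The groups did not overlap, as was found upward for 16.3% of all miRNAs. miR-99b-5p was higher in Epi by 0.63 on the log2 scale (SE 0.24, adjusted p = 0.0466), or 0.19 above the median of all miRNAs. The difference changed little without any one of the 8 libraries (0.59 to 0.69), although each time the adjusted p passed 0.05 (0.0541 to 0.106). It turned on the scaling: over the 62 possible reference libraries it ran from 0.32 to 0.82 and was called with 7, and it was 0.35 with library totals alone and 0.20 with RLE factors.

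miR-125a-3p was at 118.8, 117.4, 192.1 and 128.6 CPM in E6.5 Epi and at 0, 28.8, 64.3 and 6.39 CPM in E6.5 Exe, with 0 to 13 counts behind the Exe values. The groups did not overlap (upward, 16.3% of all miRNAs), and it was higher in Epi by 2.61 (SE 0.97, adjusted p = 0.0448). The call was lost without Epi replicate 1, 3 or 4 or Exe replicate 1, 2 or 4 (2.28 to 2.70, adjusted p 0.053 to 0.116), and it held with 11 of the 62 reference libraries (2.22 to 2.81). miR-125a-5p, made from the same hairpin, overlapped between the tissues, with 8355 ± 4681 CPM in Epi and 8375 ± 2036 CPM in Exe (SD, n = 4 each), and was not called.

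At E7.5, where 26.4% of all miRNAs were called between tissues, 1 of 7 members was. miR-125b-5p was at 296.7, 457.1 and 317.3 CPM in Epi and at 21.7, 149.4, 86.0 and 56.1 CPM in Exe. The lowest Epi library lay above the highest Exe library, as was found for 16.6% of all miRNAs. miR-125b-5p was higher in Epi by 2.59 (SE 0.78, adjusted p = 0.00923). The call was kept without each replicate (2.28 to 3.08) and with each of the 62 reference libraries (2.10 to 2.59). In this comparison all 5 epiblast markers were called higher in Epi. Of the trophoblast markers (Sfmbt2 cluster) 5 of 6 were lower, as were 4 of 5 pluripotency markers (miR-290 cluster), 1 stromal and 1 blood marker. The part of these shifts in the miR-125b-5p level was not tested.

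At E6.5 the same miRNA had shown no such order, with 181.6, 78.2, 44.7 and 119.9 CPM in Epi and 60.8, 215.8, 484.9 and 262.1 CPM in Exe (log2 difference -1.05, SE 0.73, adjusted p = 0.3). The tissue difference of miR-125b-5p itself differed between stages, by 3.64 (SE 1.07, adjusted p = 0.0257), the only member of 7 called in that interaction against 6.53% of all miRNAs. It held with each reference library, and was lost without E6.5 Epi replicate 2 or 3, E6.5 Exe replicate 3, E7.5 Epi replicate 2, or E7.5 Exe replicate 1 or 4 (3.11 to 3.52, adjusted p 0.0502 to 0.0643). In the same interaction 4 of 6 trophoblast, 3 of 5 pluripotency and 1 of 6 stromal markers were called lower, and no epiblast or blood marker was called. The part of these shifts in the miR-125b-5p values was not tested.

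Between E6.5 and E7.5, no member was called in control Exe (background 7.6%) or control Epi (background 17.5%). At an unadjusted p under 0.05 with the same fold threshold, 2 members passed in Exe (19.8% of all miRNAs) and 3 in Epi (28.4%), and DESeq2 called 1 in all. In Epi, miR-99b-5p was lower at E7.5 in each library than at E6.5, by 0.63 (SE 0.26, adjusted p = 0.0801). This difference was called with 25 of the 62 reference libraries (-0.90 to -0.42) but not on leaving out any one replicate (-0.71 to -0.56). miR-125b-5p was higher in every E7.5 library (1.88, SE 0.77, adjusted p = 0.0806), and miR-125a-3p was lower in every E7.5 library (-2.20, SE 1.01, adjusted p = 0.129). Non-overlap of this kind was found for 17.5% of all miRNAs upward and 20.1% downward. When only the control Epi groups were fitted, these 3 were called, at adjusted p of 0.00276, 0.00964 and 0.00332. In the same comparison 5 of 6 trophoblast markers (Sfmbt2 cluster) were lower at E7.5 (15359, 23684, 6302 and 5148 CPM summed at E6.5, 1804 to 2098 at E7.5), as were 5 of 5 pluripotency markers of the miR-290 cluster (68721 to 73823 against 17584 to 17932). Of the 6 stromal markers 2 were higher (277 to 360 against 973 to 2430), no epiblast or blood marker was called, and the part of these shifts in the members' values was not tested.

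The question the series put was how loss of DNA methylation alters miRNA levels. Over the 12 comparisons of a Dnmt mutant with its control, with 6 or 7 members tested in each, members were called 9 times, always higher in the mutant and always in Epi. Of all tests in these comparisons 8.72% were called. The share called among all miRNAs was also higher in Epi, at 0.733% to 31.9% in the Epi comparisons and 0.0% to 9.88% in the Exe ones. Whether the effect differs between Epi and Exe was tested for Dnmt-null only, and no member was called in that test at either stage (background 0.912% at E6.5 and 0.608% at E7.5), with 2 members past an unadjusted p at E6.5 (18.1% of all miRNAs) and 0 at E7.5 (13.4%).

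**Figure D4:**
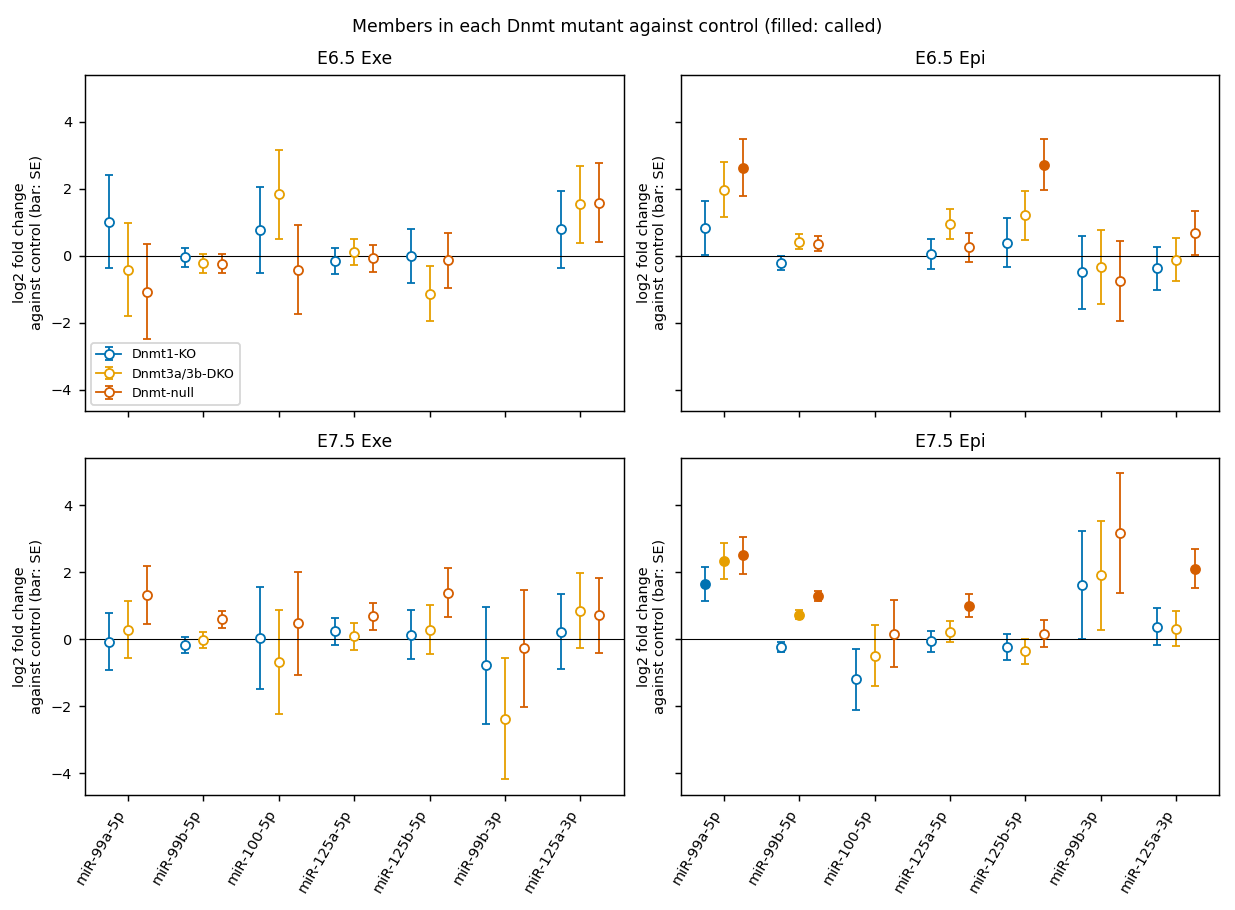
Log2 fold change of each member against control, with SE bars and 1 colour a Dnmt genotype, in the 4 tissue and stage sets. Filled points are called, and they number 9, of which 7 are in E7.5 Epi and 2 in E6.5 Epi. miR-99b-3p was not tested in E6.5 Exe, nor miR-100-5p in E6.5 Epi.

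E7.5 Dnmt-null Epi showed the most: 4 of 7 members were called higher and none lower, where 31.9% of all miRNAs were called in either direction and 15.6% higher. miR-99b-5p was at 8510, 9187 and 9969 CPM in controls and at 25379, 29784 and 23815 CPM in Dnmt-null. The groups lay far apart, and miR-99b-5p rose by 1.28 (SE 0.15, adjusted p = 8.1e-06). The call was kept in each of the alternatives tried and without each replicate (1.22 to 1.35). The median over all miRNAs in this comparison was -0.19.

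miR-125a-5p, its neighbour at the other end of the cluster, was at 9272, 9488 and 6652 CPM in controls and at 23561, 11368 and 23944 CPM in Dnmt-null. Dnmt-null replicate 2 came close to the controls, and miR-125a-5p rose by 1.0 (SE 0.34, adjusted p = 0.0304). The call was lost without any one control or without Dnmt-null replicate 1 or 3 (0.80 to 1.08, adjusted p 0.0519 to 0.115). miR-125a-3p was at 15.48, 36.2 and 31.4 CPM in controls and at 157.6, 141.4 and 121.4 CPM in Dnmt-null, a rise of 2.11 (SE 0.59, adjusted p = 0.0108) that was lost without control replicate 1 (1.82, adjusted p = 0.0512).

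On chromosome 16, miR-99a-5p was at 38.3, 46.8 and 40.04 CPM in controls and at 44.0, 366.7 and 424.8 CPM in Dnmt-null. Dnmt-null replicate 1 thus lay within the controls and the other two far above them, and miR-99a-5p rose by 2.51 (SE 0.55, adjusted p = 0.0023), kept without each replicate (2.01 to 3.01). The remaining members were not called. miR-125b-5p had 296.7 to 457.1 CPM in controls and 274.5 to 751.3 CPM in Dnmt-null (0.17, SE 0.41, adjusted p = 0.81), and miR-100-5p 12.04 to 54.3 CPM and 22.5 to 58.6 CPM (0.16, SE 1.0, adjusted p = 0.93). miR-99b-3p was at 10.3, 0 and 0 CPM in controls and at 91.6, 4.10 and 17.8 CPM in Dnmt-null, replicates 2 and 3 resting on 2 and 5 counts (3.17, SE 1.78, adjusted p = 0.194), and without control replicate 1 both other controls were at 0.

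Several marker lists moved with this comparison. Of the 5 epiblast markers 4 were lower in Dnmt-null (105333 to 164935 CPM summed, against 202279 to 212606), and 3 of 5 pluripotency markers of the miR-290 cluster were higher (27781 to 34830 against 17584 to 17932). Of the 6 trophoblast markers, from the Sfmbt2 cluster, 4 were higher (3627 to 7826 against 1804 to 2098), and 3 of 6 stromal markers were lower (175 to 286 against 973 to 2430). Of the 6 blood markers 4 could be tested and none was called. The part of these shifts in the members' rise was not tested.

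The partial mutants of E7.5 Epi shared the rise of miR-99a-5p. It was at 174.5, 95.3, 182.3 and 139.8 CPM in Dnmt1-KO and at 234.6, 156.2, 274.5 and 235.4 CPM in Dnmt3a/3b-DKO, all 8 above the 3 controls that the comparisons have in common. Non-overlap upward was found for 16.1% of all miRNAs in the first mutant and 18.3% in the second. In Dnmt1-KO it was the only member called (1.64, SE 0.51, adjusted p = 0.0373, background 14.9%), and the call was lost without any one control or Dnmt1-KO replicate 1, 3 or 4 (1.53 to 1.71, adjusted p 0.0584 to 0.115). In Dnmt3a/3b-DKO it rose by 2.34 (SE 0.53, adjusted p = 0.00827), and 2 members were called against a background of 7.06%.

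The other was miR-99b-5p, at 17182, 19558, 15152 and 12845 CPM in Dnmt3a/3b-DKO. All 4 libraries lay above the controls, and miR-99b-5p rose by 0.73 (SE 0.14, adjusted p = 0.00262). Both Dnmt3a/3b-DKO calls were kept without each replicate. Of the marker lists, 1 epiblast marker was called lower in Dnmt1-KO and 1 trophoblast marker higher in Dnmt3a/3b-DKO, against control. In Dnmt1-KO, miR-99b-5p stood at 9276, 10128, 8307 and 8019 CPM, overlapping the controls (-0.23, SE 0.14, adjusted p = 0.304). miR-125a-5p overlapped the controls in both partial mutants, with 4515 to 12047 CPM in Dnmt1-KO and 7187 to 12348 CPM in Dnmt3a/3b-DKO.

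Set directly against the partial mutants, E7.5 Dnmt-null Epi was higher in miR-99b-5p by 1.51 over Dnmt1-KO (SE 0.14, adjusted p = 3.78e-06) and by 0.55 over Dnmt3a/3b-DKO (SE 0.14, adjusted p = 0.00989). The first was kept without each replicate (1.44 to 1.58). The second fell under the fold threshold without Dnmt3a/3b-DKO replicate 4 (0.45, adjusted p = 0.0327). In all, 3 of 7 members were called against Dnmt1-KO (background 9.51%) and 2 of 7 against Dnmt3a/3b-DKO (background 14.3%), each higher in Dnmt-null. Marker lists moved here too. Against Dnmt1-KO, 2 epiblast markers (135939 to 200375 CPM summed in Dnmt1-KO) and 1 stromal marker (257 to 1312) were lower in Dnmt-null, and 2 trophoblast (2341 to 2865) and 2 pluripotency markers (19576 to 29937) were higher. Against Dnmt3a/3b-DKO, 3 epiblast (193250 to 203244 CPM summed in Dnmt3a/3b-DKO) and 2 stromal markers (715 to 2284) were lower. No blood marker was called in either, and the part of these shifts in the members' values was not tested.

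miR-125a-5p was higher than in Dnmt1-KO by 1.06 (SE 0.31, adjusted p = 0.036), a call lost without Dnmt-null replicate 1 or 3 or Dnmt1-KO replicate 3 or 4 (0.83 to 1.04, adjusted p 0.0675 to 0.144). miR-125a-3p, at 26.9, 42.7, 48.3 and 45.8 CPM in Dnmt1-KO and 27.2, 61.3, 12.1 and 46.0 CPM in the other mutant, lay below all Dnmt-null libraries in both. It was higher in Dnmt-null by 1.73 (SE 0.53, adjusted p = 0.0476) and by 1.78 (SE 0.53, adjusted p = 0.0286). The first call was lost without any one of its 7 libraries (1.59 to 1.81, adjusted p 0.0721 to 0.123), the second without any Dnmt-null library or Dnmt3a/3b-DKO replicate 1 or 3 (1.49 to 1.85, adjusted p 0.0577 to 0.09). The comparisons share the Dnmt-null libraries. Over all 8 comparisons of Dnmt-null with a partial mutant, these 5 calls stand against 4.87% of all tests, while 11 passed at an unadjusted p (14.1% of all tests) and DESeq2 called 8.

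In E6.5 Epi, 2 of 6 tested members were called in Dnmt-null (background 13.0%) and none in Dnmt1-KO (background 0.733%) or Dnmt3a/3b-DKO (background 3.42%). At an unadjusted p, 0 members passed in Dnmt1-KO (12% of all miRNAs) and 2 in Dnmt3a/3b-DKO (14.9%), and DESeq2 called 0 in either. miR-99a-5p was at 45.4, 60.5, 20.1 and 24.0 CPM in controls and at 0, 558.4, 240.0 and 170.5 CPM in Dnmt-null, where replicate 1 lay below the controls and the other 3 above them. It rose by 2.62 (SE 0.85, adjusted p = 0.0453). miR-125b-5p was at 181.6, 78.2, 44.7 and 119.9 CPM in controls and at 2365, 221.6, 315.1 and 178.6 CPM in Dnmt-null, a rise of 2.72 (SE 0.76, adjusted p = 0.0197) that came to 1.05 (adjusted p = 0.261) without Dnmt-null replicate 1.

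That replicate had the fewest counts of all libraries, 45242, and the lowest epiblast marker sum of any Epi library, 48473 CPM, and all 5 epiblast and 2 of 5 pluripotency markers were called lower in this comparison. Both calls were also lost with the replicate number as a block, which in this comparison pairs the libraries (2.41, adjusted p = 0.0785 for miR-99a-5p and 2.21, adjusted p = 0.0642 for miR-125b-5p). miR-125b-5p lost its call without E6.5 Epi control replicate 2 or 3 as well (2.60 and 2.48, adjusted p = 0.0536 and 0.0672), and miR-99a-5p without any one control or Dnmt-null replicate 2, 3 or 4 (1.81 to 2.93, adjusted p 0.0502 to 0.214), and it held with 7 of 16 reference libraries. miR-99b-5p was at 30370, 22266, 17178 and 17334 CPM in Dnmt-null, all above the 4 controls, with a difference of 0.36 (SE 0.22, adjusted p = 0.303), and non-overlap upward was found for 11% of all miRNAs. In E6.5 Dnmt3a/3b-DKO Epi, 3 members lay above the controls in every library without being called, against 12.2% of all miRNAs: miR-99b-5p at 19196 to 22755 CPM, miR-99a-5p at 69.1 to 281.6 CPM and miR-125b-5p at 207.5 to 304.2 CPM.

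In Exe no member was called in any Dnmt mutant. At E6.5 the background was 0.0% in Dnmt1-KO, 0.532% in Dnmt3a/3b-DKO and 0.532% in Dnmt-null, and no member passed at an unadjusted p (8.78%, 9.04% and 13.0% of all miRNAs) or by DESeq2. At E7.5 the background was 5.03%, 3.02% and 9.88% in the same order, where 1 member passed at an unadjusted p, in Dnmt-null (16.8%, 8.21% and 19.4% of all miRNAs), and 0 by DESeq2. This was miR-99b-5p, at 8659, 11600, 8609 and 10144 CPM in controls and at 10530, 14901, 13236 and 18259 CPM in Dnmt-null, with overlap at the lowest Dnmt-null library (0.59, SE 0.24, adjusted p = 0.139). miR-125a-5p had 3436 to 13549 CPM in E7.5 Exe controls and 6671 to 19372 CPM in Dnmt-null (0.68, SE 0.40, adjusted p = 0.384). For the E7.5 Dnmt-null effect, Epi minus Exe, the difference was 0.64 for miR-99b-5p (SE 0.36, adjusted p = 0.467) and 0.25 for miR-125a-5p (SE 0.64, adjusted p = 1.0), so a difference between tissues was not shown.

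In AG-haESCs the comparison of O48, taken as the DKO line, with WT asks what accompanies the DMR deletions, with 1 line a genotype, so that line and genotype cannot be told apart. Of 7 members 1 was called (background 13.5%). miR-99b-5p was at 16121, 15942 and 14361 CPM in O48 and at 21443, 22762 and 23130 CPM in WT. It was lower in O48 by 0.51 (log2 fold change -0.51, SE 0.12, adjusted p = 0.0302), or -0.23 relative to the median of all miRNAs, which stood at -0.28. The call was lost without any one library other than O48 replicate 2 (-0.55 to -0.44, adjusted p 0.0631 to 0.125). It held with 2 of 8 reference libraries (-0.58 to -0.23), and the log2 fold change was -0.13 with RLE factors. Of the marker lists, 2 of 5 epiblast markers were lower in O48 (924 to 1670 CPM summed, against 3659 to 3914), as were 1 of 6 trophoblast markers (2319 to 3280 against 4518 to 4644) and 1 of 6 stromal markers (1321 to 1824 against 2477 to 2511). No blood or pluripotency marker was called, and the part of these shifts in the miR-99b-5p level was not tested.

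The libraries labelled Mir-6KO were then compared with O48, their parent line by the methods. There 51.6% of all miRNAs were called, and 3 of 7 members were. miR-99a-5p was at 121.5 and 128.9 CPM against 19.6, 18.2 and 27.7 CPM in O48, a rise of 2.02 (SE 0.36, adjusted p = 0.00213) that was kept without each library (1.91 to 2.21). miR-125a-3p was at 136.3 and 145.2 CPM against 42.4, 47.8 and 32.6 CPM, a rise of 1.28 (SE 0.36, adjusted p = 0.0189) lost without O48 replicate 3 (1.13, adjusted p = 0.057).

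miR-99b-3p was at 0 and 3.87 CPM (0 and 33 counts) against 53.8, 53.3 and 48.5 CPM, and was called lower with an adjusted p of 0.0261, a call lost without O48 replicate 1 (adjusted p = 0.055). Labelled Mir-6KO replicate 2 alone held its counts in that group. Its 5p partner overlapped between the groups, with 22020 and 15301 CPM. The median over all miRNAs was -0.82 here, and the 5 epiblast markers were all called higher and the 5 pluripotency markers all lower (13542 and 11427 CPM against 93892 to 112217), with 5 trophoblast, 2 stromal and 2 blood markers lower as well. Since the deleted miRNAs were present in these libraries, the directions describe the labelled libraries and not the deletion.

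Among E6.5 SC embryos, Dnmt-null and WT embryos differed in no member (background 1.52%), nor did DKO and WT (background 0.217%). At an unadjusted p, 1 member passed in each (18.9% and 13.0% of all miRNAs), and DESeq2 called 0 in Dnmt-null and 1 in DKO. SC WT replicate 3 carried much of these differences: for miR-99b-5p the log2 fold change was -1.60 (SE 0.68, adjusted p = 0.251) in Dnmt-null and -1.30 (SE 0.67, adjusted p = 0.423) in DKO, and without that replicate -0.28 and 0.01. miR-99a-5p was at 33.9, 36.7 and 27.6 CPM in DKO and at 174.5, 111.0 and 255.5 CPM in WT, without overlap (-2.70, SE 0.64, adjusted p = 0.147), where non-overlap downward was found for 10.8% of all miRNAs. DESeq2 called this difference (-2.80, adjusted p = 0.000742).

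DKO;Dnmt-null against DKO embryos gave 2 called members, both lower (background 26.5% in either direction, 11.6% lower). miR-125b-5p was at 165.5, 200.4 and 174.8 CPM in DKO and at 75.4, 118.5 and 66.7 CPM in DKO;Dnmt-null. It fell by 1.26 (SE 0.20, adjusted p = 7.77e-05), kept without each replicate (-1.43 to -1.09). miR-125a-5p was at 13433, 13179 and 14185 CPM in DKO and at 9898, 12154 and 8750 CPM in DKO;Dnmt-null, and fell by 0.51 (SE 0.10, adjusted p = 0.000606). This lies just past the fold threshold, and without DKO replicate 3 or DKO;Dnmt-null replicate 1 or 3 it did not pass (-0.48, -0.46 and -0.43).

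miR-99b-5p was at 15703, 13885 and 16469 CPM in DKO and at 12491, 11849 and 11613 CPM in DKO;Dnmt-null. Its log2 fold change came to -0.46 (SE 0.087, adjusted p = 0.000376), which stayed under the fold threshold, and to -0.53 without DKO replicate 2, where it passed. The 2 genotypes stand in separately deposited tables, so table and genotype cannot be told apart. All 5 epiblast markers were lower in DKO;Dnmt-null (130119 to 147052 CPM against 177971 to 196784), and 3 of the 4 blood markers tested were higher (114 to 169 CPM summed over the list of 6, against 41.0 to 57.7). Of the 6 trophoblast markers 1 was higher (16413 to 21558 against 13362 to 15202), 1 stromal marker was higher and 1 lower (383 to 587 against 391 to 424), and no pluripotency marker was called. The part of these shifts in the values of the members and of let-7 was not tested.

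At E7.5, Mir-6KO;Dnmt-null SC embryos were set against SC controls, and no member was called (background 3.08%), with 2 passing at an unadjusted p (10.8% of all miRNAs) and 1 by DESeq2. miR-99b-5p was at 18927, 14150 and 21359 CPM in controls and at 35661, 32195 and 30335 CPM in Mir-6KO;Dnmt-null. The groups did not overlap, the log2 fold change was 0.60 (SE 0.19, adjusted p = 0.211), and non-overlap upward was found for 13.7% of all miRNAs. With library totals alone the difference was 0.85 (adjusted p = 0.0319).

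miR-125a-3p had 117.3, 43.9 and 46.6 CPM in controls and 115.6, 282.5 and 214.1 CPM in Mir-6KO;Dnmt-null (1.38, SE 0.56, adjusted p = 0.357). miR-125b-5p had 186.9, 158.2 and 148.3 CPM in controls and 64.3, 142.0 and 81.1 CPM in Mir-6KO;Dnmt-null, without overlap and not called (non-overlap downward, 7.01% of all miRNAs). The deleted miRNA genes have an intact maternal copy in SC embryos, and miR-127-3p was at 34218 to 51921 CPM against 52288 to 67386 CPM in controls, so its level is no check of the genotype.

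Of 10 other products listed for the same 3 clusters, 7 are in the main table, and let-7e-5p, let-7c-5p and let-7a-5p were tested in every comparison. let-7c-5p and let-7a-5p are also made from other genes, so their counts are not those of these clusters alone. None of the 3 was called in E7.5 Epi Dnmt-null against control, where miR-99b-5p and miR-125a-5p rose. There let-7e-5p was at 172.4, 108.6 and 138.0 CPM in controls and at 219.9, 413.8 and 132.1 CPM in Dnmt-null, with overlap.

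Conversely, in E7.5 Exe Dnmt-null, where no member was called, let-7c-5p (2.89, SE 0.73, adjusted p = 0.014) and let-7a-5p (1.24, SE 0.35, adjusted p = 0.0292) rose. let-7c-5p was at 23.4, 46.7, 39.1 and 24.0 CPM in controls and at 108.9, 137.3, 510.4 and 217.6 CPM in Dnmt-null. Its call was lost without control replicate 1 or 4 or Dnmt-null replicate 3 (2.28 to 2.75, adjusted p 0.0539 to 0.0631), and that of let-7a-5p without any one control or Dnmt-null replicate 2 or 3 (1.06 to 1.30, adjusted p 0.0542 to 0.0982). In this comparison 2 of 5 epiblast markers were lower in Dnmt-null (17252 to 27413 CPM summed, against 33368 to 45944), 2 of 6 stromal markers were lower (466 to 2140 against 1500 to 8601), 1 of 6 trophoblast markers was higher (27419 to 47146 against 35574 to 45759), and no blood or pluripotency marker was called. The part of these shifts in the rise of let-7 was not tested. In DKO;Dnmt-null SC embryos, where miR-125a-5p and miR-125b-5p fell, all 3 let-7 products rose: let-7a-5p by 1.77 (SE 0.13, adjusted p = 3.58e-09), let-7c-5p by 1.33 (SE 0.23, adjusted p = 0.000153) and let-7e-5p by 0.86 (SE 0.14, adjusted p = 0.000103). The level of let-7e-5p there was 157.6, 180.3 and 202.5 CPM in DKO and 362.2, 333.1 and 358.3 CPM in DKO;Dnmt-null. In the libraries labelled Mir-6KO, let-7a-5p (-4.73, SE 0.29, adjusted p = 4.66e-06) and let-7e-5p (-1.16, SE 0.30, adjusted p = 0.0143) were lower than in O48, and let-7e-3p and miR-125b-1-3p had 0 counts in both labelled Mir-6KO libraries.

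As a description over the 16 condition means of Exe and Epi, on log2 CPM, the chromosome 17 pair correlated at r = 0.673, miR-99b-5p with miR-99a-5p at 0.601, and miR-99b-5p with let-7e-5p at 0.0141. The points share libraries, tissues and depth. Among 651 other miRNAs, the patterns most like miR-99b-5p were those of miR-2137 (r = 0.69), miR-670-5p (0.67) and miR-690 (0.663), and those most like miR-125a-5p were miR-7016-3p (0.664), miR-132-3p (0.655) and miR-666-5p (0.647). For miR-99a-5p they were miR-1264-3p (0.777), miR-488-5p (0.736) and miR-9b-3p (0.73), and for miR-125b-5p miR-5126 (0.68), miR-1264-3p (0.672) and miR-106b-3p (0.665). Apart from miR-666-5p (543 CPM), miR-5126 (506 CPM) and miR-106b-3p (713 CPM), these neighbours had means of 25.7 CPM or less over the 16 conditions, with few counts behind each value.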

How the data were processed

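The authors deposited counts per mature miRNA without normalization, in a main table and a smaller one for the DKO;Dnmt-null SC embryos. By the methods and the submitters' processing notes, reads were trimmed with fastp 0.20.1 and aligned with Bowtie 1.2.1.1 to GRCm38, then to miRBase mature sequences, with a tolerance for templated bases at the 3′ end that the near-identical members may share. A second copy of the main table with 90 columns, of which 2 hold none of its libraries, was not used. The members and lists were chosen with earlier results of these data known. Tests used edgeR 4.0.16 (R 4.3.3) with TMM factors, a count minimum of 10 and Benjamini-Hochberg adjustment over all miRNAs tested. The 62 Exe and Epi libraries (16 conditions) shared 1 fit for tissue, stage and interactions, and the 4 genotypes of each tissue and stage shared 1 fit for mutants, so those comparisons share controls. DESeq2 1.42.0, RLE factors, library totals, other filters, fits of only the groups compared and a replicate block were alternatives. Fits without 1 library kept the miRNAs and factors of the whole fit. The TMM reference library was varied as an alternative chosen after seeing the data, since refits that picked a reference anew had moved values with the reference. Ratios used a pseudocount of 0.5 and SciPy 1.17.1. The fits were checked on simulated counts with known 4-fold changes, for Dnmt-null against control. They recovered 75.4% of the changes in E6.5 Epi, 49.7% in E7.5 Epi and 55.6% in E7.5 Exe. Of the unchanged miRNAs they called 1.98%, 0.237% and 0.539% in the same order. A member that was not called may therefore still have changed. Of 115 replicate pairs none agreed within counting error (chi-square per degree of freedom at least 4.2). Replicate numbers paired the libraries in 2 of 30 comparisons, E6.5 Epi Dnmt-null against control and SC DKO against WT, where same-numbered libraries deviated together in every pair (correlation over 0.1). The 3 libraries labelled 408-AG-haESC had no stated genotype and entered no comparison. Detection limits cover counting error only.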

Additional observations from a re-analysis of the deposited data

Results flagged for a closer look

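Of 98 groups of 4 libraries, 10 held a library far from the other 3, by a rule set to flag about 1 in 20 by chance. Scarce counts, some of them 0, need not keep that rate, so no excess over chance was shown. For miR-99a-5p the flagged libraries were E6.5 Exe Dnmt-null replicate 2 (147 CPM, others 0 to 21.1), E6.5 Exe Dnmt1-KO replicate 4 (703 CPM, others 10.2 to 35.8) and E6.5 Exe control replicate 1 (289 CPM, others 6.39 to 29.7). The Dnmt1-KO library also held 8515 CPM of the blood markers and 3279 CPM of the stromal markers, and the part of these in its miR-99a-5p level was not tested. For miR-125b-5p it was E6.5 Epi Dnmt-null replicate 1 (2365 CPM, others 179 to 315), the library with the fewest counts.

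miR-100-5p was at 0 in E7.5 Epi Dnmt1-KO replicate 1 (others 20.0 to 20.9 CPM). miR-99b-3p stood apart in E6.5 Epi control replicate 1 (90.8 CPM, others 30.5 to 38.0), in E6.5 Exe Dnmt3a/3b-DKO replicate 1 (28.6 CPM, others 0) and in E7.5 Exe Dnmt1-KO replicate 3 (43.5 CPM, others 0). miR-125a-3p did so in E6.5 Epi control replicate 3 (192 CPM, others 117 to 129) and E6.5 Exe Dnmt1-KO replicate 3 (0 CPM, others 67.8 to 69.3). All but the libraries of miR-100-5p and 1 of miR-99b-3p were from E6.5, where the depth was lowest. The tissue difference of miR-125b-5p differed between E7.5 and E6.5 by 3.64 on the log2 scale, by the interaction test.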

How the results depend on the processing

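The 9 member calls of mutants against controls stayed within 1.5 times under 8 alternatives, with 7 to 9 when a library was left out, and so did the 1 interaction call under 5 (0 to 1). The 3 tissue calls came to 1 with RLE factors, library totals, no filter, a mean of at least 10 counts or only the groups compared (1 to 3 without a library), and the E6.5 ones turned on the TMM reference, an alternative chosen after seeing the data: over all references 1 to 3 tissue calls were made. Stage calls, 0, came to 5 at an unadjusted p, 1 with DESeq2, 1 with library totals and 3 with only the groups compared, and to 0 to 1 over the references (0 to 1). The 5 calls of Dnmt-null against the other mutants came to 11 at an unadjusted p, 8 with DESeq2 and 2 with the replicate block, and to 3 to 6 over the references (2 to 6). Over the references the other counts stayed within 1.5 times. The 4 AG-haESC calls came to 2 without a filter, 2 with only the groups compared and 1 with the replicate block (2 to 4). The 2 calls in E6.5 SC embryos came to 4 at an unadjusted p, 1 with library totals and 1 with a mean of at least 10 counts (1 to 3), and the 0 calls in E7.5 SC embryos to 2, with DESeq2 to 1 and with library totals to 1 (0 to 0). The 1 ratio past p under 0.05 stayed with a pseudocount of 1 (0 to 1, the loss being fixed by the smaller group size). Causes other than the TMM reference were not tested.

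None of the reversed values was called. miR-99b-5p in SC DKO against WT was 0.01 without WT replicate 3 (-1.69 to 0.01). In E7.5 Epi Dnmt-null, miR-100-5p was -0.22 without control replicate 1 and -0.23 without Dnmt-null replicate 1 (-0.23 to 0.81), and miR-125b-5p was -0.37 without Dnmt-null replicate 1 (-0.37 to 0.47). For miR-125a-5p the E7.5 Dnmt-null effect, Epi minus Exe, was -0.09 without Exe control replicate 2 (-0.09 to 0.64). In the 28 comparisons where numbers pair nothing, the block ended the calls of miR-99a-5p in E7.5 Epi Dnmt1-KO (adjusted p = 0.0643) and of miR-125a-3p at E6.5 between tissues (adjusted p = 0.0525), among others. With TMM-scaled totals, 21 of 168 condition means moved by over 1 SD. At E6.5, 3 counts reach 66.3 CPM, near the levels of the scarce members, so that smaller differences there were not detectable.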

Other observations

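The 3 libraries labelled 408-AG-haESC were in no comparison. They held 26931, 26243 and 26312 CPM of miR-99b-5p, 11690, 11674 and 11420 CPM of miR-125a-5p, and 324.6, 330.4 and 366.2 CPM of miR-125b-5p. miR-100-5p stood at 122.6, 127.1 and 126.2 CPM, miR-99a-5p at 28.8, 36.1 and 38.3 CPM, miR-99b-3p at 72.5, 91.7 and 72.9 CPM, and miR-125a-3p at 64.0, 47.8 and 59.5 CPM. let-7e-5p, from the same cluster as miR-99b-5p, was at 733.4, 693.0 and 746.9 CPM.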
